A study of Mus musculus with 24 samples.

Results

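The genes described here are those that moved in opposite directions, or in the same direction, when *Id1* was silenced and when it was induced, after mouse epidermal progenitor cells had been 24 h in high calcium. For every gene, the difference between cells with an *Id1* shRNA (shId1) and cells with a scrambled shRNA (shScr), the silencing effect, was subtracted from the difference between cells with and without doxycycline-induced ID1 (+dox and -dox), the induction effect. This opposed contrast is above 0 for a gene that is, on balance, higher in the groups meant to have more *Id1*. It is below 0 for a gene that is, on balance, lower in them. A gene that moves the same way in both experiments by unequal amounts can also be called. Of 10793 genes tested, 300 were called above 0 (2.78%) and 398 below 0 (3.69%), a call being a Benjamini-Hochberg adjusted p below 0.05 in limma together with a log2 difference over 1. Called in each experiment on its own were 8 genes that follow *Id1*, lower with shId1 and higher with +dox (0.0741% of genes tested), and 36 genes that oppose it, higher with shId1 and lower with +dox (0.334%). A further 13 genes were higher in both experiments (0.12%) and 5 were lower in both (0.0463%).

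ID1 is a helix-loop-helix protein without a DNA-binding domain. It pairs with E proteins such as those encoded by *Tcf3*, *Tcf4* and *Tcf12* and so keeps them and their bHLH partners from the E-box, the sequence CANNTG. In the epidermis, a rise in extracellular calcium makes cultured basal keratinocytes leave the progenitor state and begin to make the proteins of the cornified envelope, the cross-linked shell of the outermost skin cells.

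The RNA-seq libraries came from primary wild-type epidermal progenitors of P0 mouse pups, grown on 3T3-J2 feeder cells and transduced with lentivirus, in 8 groups of 3 libraries; ID1 was induced with doxycycline for 3 days. The 12 libraries at 24 h are shScr, shId1, ID1 -dox and ID1 +dox, all in high calcium; the same 4 groups at 0 h were kept in low calcium. Cells of the -dox groups carry the inducible ID1 construct without doxycycline, and no group received doxycycline without the construct, so effects of doxycycline and of ID1 cannot be told apart. No group stayed in low calcium for 24 h. The labels call the replicates biological but do not say that they came from separate cultures, so p-values measure the spread between these libraries.

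The 24 h libraries held between 22929910 and 29111471 reads in the 9 whose depth could be recovered, and replicates correlated at r = 0.975 to 0.996 across genes. Some libraries stood apart: shRNA pairs that include a replicate numbered 1 correlated at 0.975 to 0.987, against 0.993 to 0.994 without it, and +dox pairs with replicate 3 at 0.982 to 0.989, against 0.995 for the pair of replicates 1 and 2. All 10 keratinocyte markers were in the table. Of 22 fibroblast or feeder markers, 6 were in the table, among them neither *Col1a1* nor *Vim*, and their summed value, in CPM, was 314 to 375 with shScr, 273 to 355 with shId1, 605 to 638 with -dox and 672 to 756 with +dox. None of 8 immune markers was in the table. Mitochondrial transcripts took 2.16 to 2.95% of the shRNA libraries and 0.84 to 1.33% of the ID1 libraries at 24 h; levels are therefore compared within an experiment and not across the pair.

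Promoter sequences of genes that move together are shown because the E-box is the element from which ID1 withholds its partners. Each line runs from 250 bases before to 50 bases after a start of the gene given by RefSeq on GRCm38.p6, 5′ to 3′ on the strand of the gene. Every E-box (CANNTG, which reads the same on both strands) is in capitals. The annotation used for gene positions places the start of *Grb14* further upstream, at chr2:65024987, outside the window shown. The first 4 genes oppose *Id1* and lie at chr3:90668821-90669120 (plus strand), chr2:24186226-24186525 (plus), chr1:83116516-83116815 (plus) and chr3:92485832-92486131 (minus); *Grb14* at chr2:65022717-65023016 (minus) and *Unc5b* at chr10:60831532-60831831 (minus) follow it.
S100a8: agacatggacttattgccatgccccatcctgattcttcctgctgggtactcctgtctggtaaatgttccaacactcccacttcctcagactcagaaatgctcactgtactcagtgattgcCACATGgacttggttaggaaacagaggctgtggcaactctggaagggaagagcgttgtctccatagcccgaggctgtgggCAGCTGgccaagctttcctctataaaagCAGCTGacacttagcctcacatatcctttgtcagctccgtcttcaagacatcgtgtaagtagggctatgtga
Il1f9: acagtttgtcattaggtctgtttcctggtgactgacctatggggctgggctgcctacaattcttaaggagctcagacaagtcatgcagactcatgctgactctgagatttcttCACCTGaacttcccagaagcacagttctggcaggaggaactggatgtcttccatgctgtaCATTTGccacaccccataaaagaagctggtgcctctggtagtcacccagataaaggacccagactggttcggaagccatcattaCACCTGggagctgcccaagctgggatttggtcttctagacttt
Ccl20: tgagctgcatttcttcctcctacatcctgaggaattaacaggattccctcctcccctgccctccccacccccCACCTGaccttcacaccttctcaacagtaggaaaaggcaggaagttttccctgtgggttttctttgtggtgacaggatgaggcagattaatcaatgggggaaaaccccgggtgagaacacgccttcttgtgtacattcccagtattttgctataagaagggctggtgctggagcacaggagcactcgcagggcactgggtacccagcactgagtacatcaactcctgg
Sprr1a: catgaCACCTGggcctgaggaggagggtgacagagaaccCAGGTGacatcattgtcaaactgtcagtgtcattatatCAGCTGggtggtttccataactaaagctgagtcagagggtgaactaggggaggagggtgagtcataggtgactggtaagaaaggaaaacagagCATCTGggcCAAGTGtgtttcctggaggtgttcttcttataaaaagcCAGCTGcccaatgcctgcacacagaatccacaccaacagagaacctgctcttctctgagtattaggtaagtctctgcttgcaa
Grb14: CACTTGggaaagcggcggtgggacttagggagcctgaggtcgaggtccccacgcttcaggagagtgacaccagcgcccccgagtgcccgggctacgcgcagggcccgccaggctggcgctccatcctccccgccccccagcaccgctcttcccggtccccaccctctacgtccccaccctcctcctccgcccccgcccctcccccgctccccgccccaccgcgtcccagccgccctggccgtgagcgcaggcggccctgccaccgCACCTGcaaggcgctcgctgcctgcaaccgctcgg
Unc5b: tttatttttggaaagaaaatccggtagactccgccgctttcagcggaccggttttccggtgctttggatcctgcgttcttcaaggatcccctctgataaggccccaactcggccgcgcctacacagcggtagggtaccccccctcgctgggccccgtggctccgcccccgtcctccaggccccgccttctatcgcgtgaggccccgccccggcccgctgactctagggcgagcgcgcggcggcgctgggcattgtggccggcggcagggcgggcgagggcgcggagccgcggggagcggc
These windows hold 3 E-boxes for *S100a8*, 3 for *Il1f9*, 1 for *Ccl20*, 6 for *Sprr1a*, 2 for *Grb14* and 0 for *Unc5b*. Over all genes tested with a RefSeq promoter, 62.1% of 8325 windows held an E-box, against 23 of 28 windows (82.1%) of the genes that oppose *Id1* in both experiments and 4 of 6 (66.7%) of those that follow it. Among the 225 windows of genes called above 0 in the opposed contrast the share was 68.9%, and among the 284 of genes called below 0 it was 70.4%. The AP-1 element TGANTCA, which also reads the same on both strands, was in 4.94% of all windows, 4.89% of those called above 0, 17.3% of those called below 0 and 14.3% of those opposed in both. A match describes the letters only, and several of the matched genes are paralogs with related promoters.

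*Id1* itself was separated less at 24 h than at 0 h. With shScr its value, in reads per 1000000 of the scaled library (CPM), was 27.9, 44.8 and 69.6 in replicates 1 to 3 and with shId1 17.6, 40.1 and 29.7. Without doxycycline it was 73.9, 67.5 and 59.7 and with doxycycline 106, 96.0 and 76.1. The +dox libraries were all above the -dox libraries, while the shRNA groups overlapped. The log2 differences were -0.67 for silencing (SE 0.30, adjusted p = 0.174) and 0.46 for induction (adjusted p = 0.368), and the opposed contrast was 1.13 (SE 0.43, adjusted p = 0.102), so no call was made. With the replicate number as a block the opposed contrast of *Id1* was called (adjusted p = 0.00378). At 0 h the values were 60.7, 103 and 111 with shScr against 25.7, 19.7 and 39.0 with shId1, and 10.5, 13.2 and 7.15 without against 41.6, 107 and 73.0 with doxycycline, with neither pair of groups overlapping (log2 -1.69, adjusted p = 0.00404, and 2.72, adjusted p = 1.28e-05). Genes are called following or opposing *Id1* by the manipulation as labelled, since *Id1* transcripts were not called different at 24 h. The sources used do not say whether reads of the ID1 construct count towards *Id1*.

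Of 10793 genes, 559 were called in at least 1 experiment. Silencing called 279 genes higher (2.59%) and 132 lower (1.22%), and induction called 100 higher (0.927%) and 110 lower (1.02%). The 36 genes that oppose *Id1* are 12.9% of the genes raised by silencing and 32.7% of those lowered by induction, whereas the 8 that follow it are 6.06% of the genes lowered by silencing and 8% of those raised by induction. Across all genes tested the effects of silencing and induction correlated at Pearson's r = -0.13 and Spearman's rho = -0.05, a description across genes, which are not independent. Of the called opposed contrasts, 159 of 300 above 0 and 140 of 398 below 0 belonged to genes called in neither experiment alone.

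**Figure D1:**
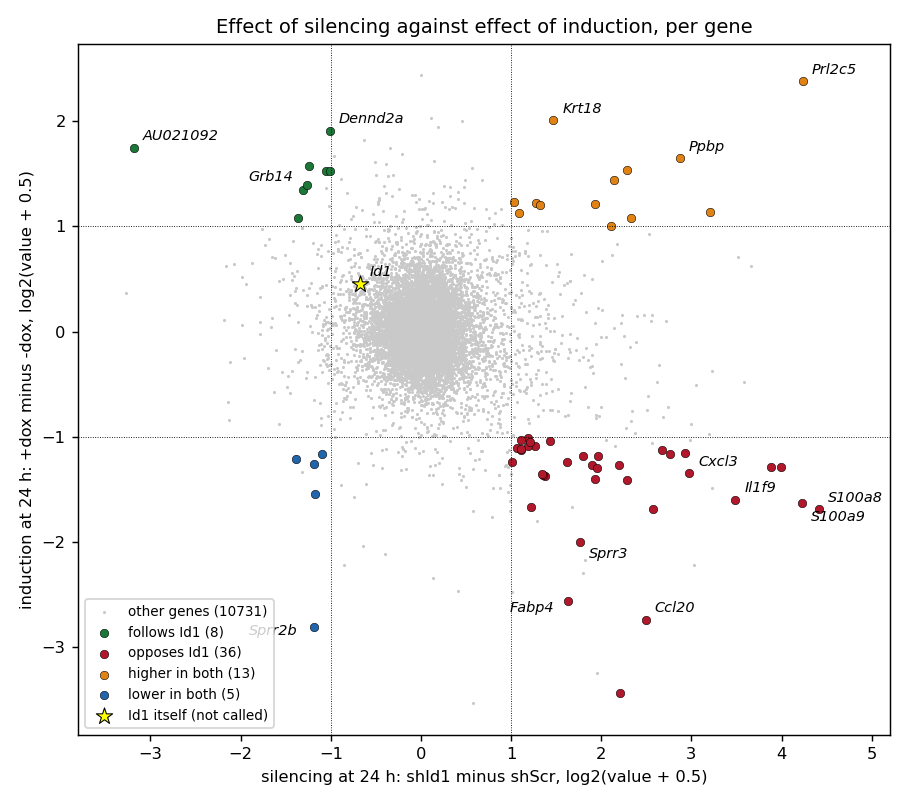
Silencing effect (horizontal axis, log2 difference shId1 minus shScr at 24 h) against induction effect (vertical axis, log2 difference +dox minus -dox at 24 h) for 10793 genes; dotted lines mark a log2 difference of 1 in either direction. The 36 genes opposing Id1 fill the lower right corner and reach 4.42 for silencing, the 8 that follow it lie upper left, and Id1 itself (star) lies within the limits on both axes.

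The total of 44 genes opposed in both experiments rests on calls near the limits. It was 67 without shId1 replicate 1, 26 without -dox replicate 2, 26 without -dox replicate 3, 29 without +dox replicate 1 and 25 without +dox replicate 2. Of the 36 opposing genes, 12 kept both calls whichever library was left out and 8 kept them in all 24 alternatives: *S100a8*, *S100a9*, *Il1f9*, *Ccl20*, *Ksr1*, *Sox4*, *Nlrp10* and *2610528A11Rik*. Without the 3 libraries that stood apart, 51 genes opposed *Id1* in both, 30 of the 36 among them. With all 24 libraries in the fit, 31 genes opposed it in both, 24 of the 36 among them. *Kprp* and *Pla2g4d* were among those that lost a call there. Just inside the limits were *Nedd9* and *Man1a*, with a smaller effect of 1.008 and 1.01 on the log2 scale, and just outside were *Fam83a* (0.99 and -1.46) and *Tgm3* (0.99 and -1.61).

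The alarmins *S100a8* and *S100a9*, calcium-binding proteins that keratinocytes release under stress and that attract neutrophils, opposed *Id1* most. *S100a8* stood at 0.693, 0.599 and 0.979 CPM with shScr and at 15.3, 33.4 and 34.8 with shId1. It stood at 3.00, 3.42 and 3.67 with -dox and at 0.871, 0.821 and 0.439 with +dox. All shId1 libraries were above all shScr libraries and all +dox libraries were below all -dox libraries. The log2 difference was 4.42 for silencing (SE 0.28, adjusted p = 7.28e-07) and -1.69 for induction (SE 0.28, adjusted p = 0.00285), which makes an opposed contrast of -6.11. Its partner *S100a9* had 0.361, 0.470 and 0.606 with shScr and 13.3, 21.3 and 19.7 with shId1, and 1.96, 2.52 and 2.23 with -dox and 0.275, 0.435 and 0.439 with +dox. Here too the groups did not overlap in either experiment, with log2 differences of 4.23 (adjusted p = 5.79e-08) and -1.63 (adjusted p = 0.000745). In bulk libraries, fewer cells that express a gene and less RNA per cell cannot be told apart. Of all genes tested, 367 (3.4%) lay apart in both experiments in this opposing sense; of the 36 called genes 33 did, the exceptions being *Phlda1*, *Fam167a* and *Nedd9*, whose shRNA groups overlapped.

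*Il1f9*, an interleukin-1 family cytokine (IL-36 gamma) that signals between keratinocytes and immune cells, behaved likewise. Its values were 5.39, 11.03 and 9.51 with shScr, 99.8, 100.3 and 93.8 with shId1, 12.1, 14.0 and 11.9 with -dox and 2.66, 2.95 and 7.03 with +dox, so the shId1 libraries were far above the shScr libraries and the +dox libraries were below the -dox libraries. Silencing gave a log2 difference of 3.48 (SE 0.29, adjusted p = 9.27e-06) and induction -1.597 (adjusted p = 0.00528).

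*Ccl20*, the chemokine that draws CCR6-bearing lymphocytes and dendritic cells to skin, had the largest smaller effect of the 36 genes, past 2 on the log2 scale in both experiments. Values were 0.151, 1.37 and 5.22 with shScr and 6.61, 12.8 and 12.6 with shId1, and 14.5, 13.0 and 13.1 without and 1.83, 1.98 and 1.12 with doxycycline. The shScr libraries spread widely but stayed below every shId1 library, and the +dox libraries stayed below every -dox library (log2 2.49, SE 0.55, adjusted p = 0.00819, and -2.74, adjusted p = 0.00849). The neutrophil-attracting chemokine *Cxcl3* had 9.55, 13.6 and 32.3 with shScr, 81.2, 189.6 and 144 with shId1, 30.8, 49.7 and 47.0 with -dox and 17.8, 15.1 and 15.6 with +dox, again without overlap. Its silencing effect was 2.97 (adjusted p = 0.00018) and its induction effect -1.34 (adjusted p = 0.0369), the latter losing its call in 8 of 24 alternatives, 7 of them the omission of 1 library: shScr replicate 2, shId1 replicate 3, -dox replicate 2 or 3, or any +dox replicate (adjusted p from 0.0505 to 0.129). *Ptgs2*, the inducible cyclooxygenase that makes prostaglandin precursors, was at 51.3, 55.6 and 116 with shScr, 133, 161 and 157 with shId1, 129, 139 and 157 with -dox and 54.1, 64.9 and 94.0 with +dox (log2 1.11 and -1.03). Both *Ptgs2* effects lie near the limit of a call and 11 of 24 alternatives lost at least 1 of them.

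Genes of the cornified envelope were the largest group among the 36, with 11 members: *Sprr1a*, *Sprr2f*, *Sprr2h*, *Sprr3*, *Lce1a1*, *Lce1d*, *Lce1e*, *Lce3a*, *Lce3c*, *Lce3f* and *Pglyrp4*. Small proline-rich proteins (*Sprr*) and late cornified envelope proteins (*Lce*) are cross-linked into the envelope by transglutaminases, while *Pglyrp4* encodes a peptidoglycan recognition protein. *Sprr3* was at 13.2, 39.4 and 38.8 with shScr and 78.7, 99.3 and 106 with shId1, and at 36.6, 47.3 and 32 with -dox and 8.44, 8.93 and 10.2 with +dox. Neither experiment overlapped, and its effects were 1.76 (SE 0.32, adjusted p = 0.00224) and -1.999 (adjusted p = 0.00248). With all 24 libraries in the fit both calls of *Sprr3* were lost (adjusted p = 0.172 and 0.12). In that fit *Sprr1a*, *Sprr2f*, *Sprr2h*, *Lce1a1*, *Lce1d*, *Lce1e* and *Lce3f* also lost at least 1 call. *Sprr1a*, whose promoter above holds the most E-boxes of those shown, had 324, 535 and 670.3 with shScr, 904, 1268 and 1026 with shId1, 1859, 2693 and 1798 with -dox and 961, 833 and 1113 with +dox. Its effects were of equal size, 1.11 (adjusted p = 0.00756) and -1.11 (adjusted p = 0.0123), and 8 of 24 alternatives lost a call. *Lce3c* moved from 0.0904, 0.385 and 0.186 with shScr to 7.54, 11.96 and 10.8 with shId1, while -dox libraries held 7.79, 13.6 and 8.63 and +dox libraries 2.43, 4.10 and 4.99. The silencing effect of *Lce3c* was 3.88 (adjusted p = 2.5e-06) against -1.28 for induction (adjusted p = 0.0115, but 0.0581 without -dox replicate 2 and 0.0523 without +dox replicate 1). Members of the *Sprr2*, *Lce1* and *Lce3* families share sequence, so reads may have been divided between them and single values are uncertain.

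Many of these genes are neighbours. The epidermal differentiation complex, taken as the stretch from *S100a8* through the *Sprr* and *Lce* genes (chr3:90668978-93293686, GRCm38, 2.62 Mb), held 39 of the genes tested (0.361%). It held 14 of the 36 opposing genes (38.9%), 32 of the 398 genes called below 0 (8.04%), 0 of the 300 called above 0 and 0 of the 8 that follow *Id1*. The stretch was drawn to start at *S100a8*, itself an opposing gene, so these counts follow in part from that choice. *Kprp*, a keratinocyte proline-rich protein gene in the complex, was at 1.99, 3.42 and 2.24 with shScr, 11.2, 10.1 and 12.1 with shId1, 53.5, 69.3 and 48.3 with -dox and 23.8, 17.8 and 27.3 with +dox. Both differences were called (log2 1.95, adjusted p = 3.56e-05, and -1.30, adjusted p = 0.00218). *Ivl*, which encodes the envelope protein involucrin, lies in the same stretch and was called in neither (log2 0.46, adjusted p = 0.126, and -0.39, adjusted p = 0.201). *Sprr2b* is among the genes lower in both experiments. Its neighbour *Sprr2a3* had -0.65 (adjusted p = 0.0793) and -2.04 (adjusted p = 0.0003), and *2310050C09Rik*, also in the complex, had -0.90 and -0.83, under the limit on the log2 difference; both were picked after their values were seen.

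**Figure D2:**
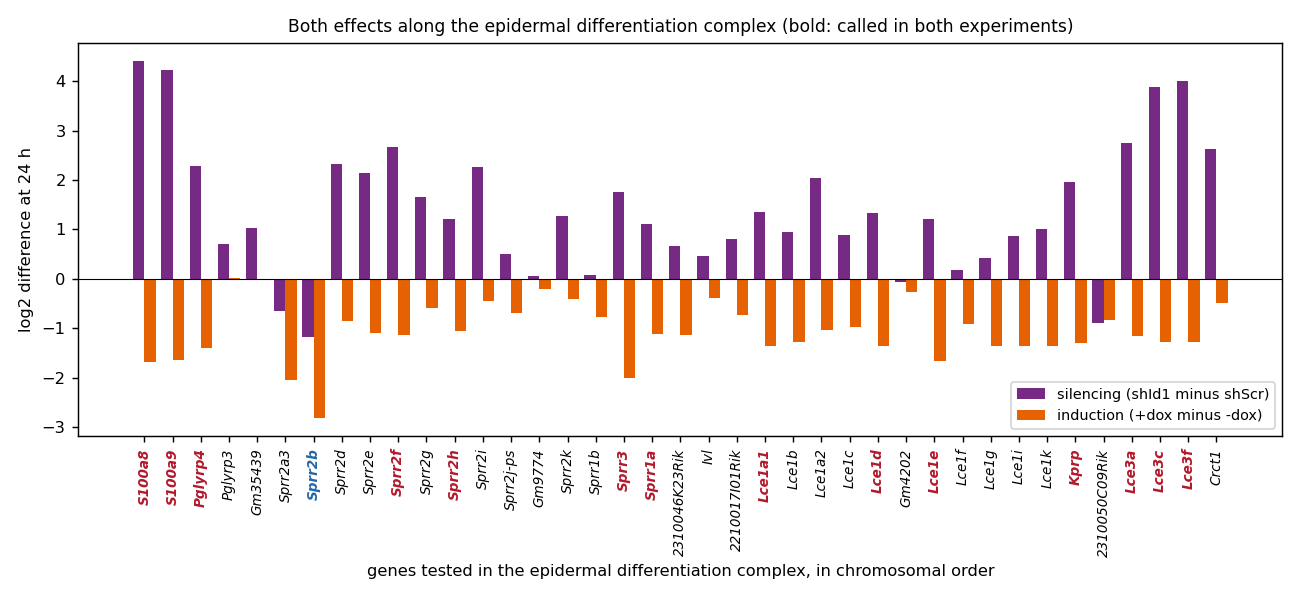
Log2 difference at 24 h for silencing (purple bars) and induction (orange bars) of the 39 genes tested in the epidermal differentiation complex, in chromosomal order along the horizontal axis, with genes called in both experiments in bold. Purple bars point up and orange bars down for most genes from S100a8 to Lce3f, and Sprr2b is the bold gene with both bars below 0.

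The remaining opposing genes have varied roles. *Fabp4*, a fatty-acid carrier best known from fat cells, had 63.9, 233 and 279.6 with shScr, 434, 541 and 527 with shId1, 59.8, 83.7 and 62.3 with -dox and 10.2, 9.03 and 14.8 with +dox. Neither experiment overlapped, although shScr replicate 1 was far below the other shScr libraries. Its effects were 1.63 (adjusted p = 0.0162) and -2.56 (adjusted p = 0.00244), and without shScr replicate 1 the silencing effect was 0.97 and no longer past the limit; without shId1 replicate 2 or 3 its adjusted p was 0.0636 and 0.0574. *Pla2g4d*, a cytosolic phospholipase A2, was at 0.783, 2.31 and 1.399 with shScr, 8.80, 11.5 and 12.4 with shId1, 5.91, 9.89 and 7.34 with -dox and 1.83, 1.400 and 2.99 with +dox (log2 2.57 and -1.69, adjusted p = 9.48e-05 and 0.00403). *Nlrp10*, a member of the NLR family of innate immune proteins, had 1.54, 2.35 and 1.91, 9.99, 7.87 and 8.96, 4.67, 5.08 and 5.75 and 1.47, 1.98 and 2.68 in the same order of groups (log2 1.96 and -1.18). The gene listed as *2610528A11Rik*, which the naming rule leaves out and which was picked after its values were seen, had the largest induction effect of the 36: 7.67, 11.2 and 11.5 with -dox against 0.550, 0.338 and 0.519 with +dox, and 2.05, 10.5 and 9.37 with shScr against 24.1, 31.3 and 34.4 with shId1 (log2 -3.44 and 2.21).

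Signalling and transcription genes were among the opposing genes as well. *Ksr1*, a scaffold of the Ras-MAP kinase cascade, was at 3.25, 3.16 and 3.92 with shScr, 7.02, 11.2 and 11.6 with shId1, 6.39, 8.45 and 7.29 with -dox and 3.26, 3.14 and 1.52 with +dox. The transcription factor gene *Sox4* was at 5.99, 6.37 and 10.9, 16.0, 19.5 and 17.6, 21.2, 22.3 and 25.9 and 9.86, 9.42 and 12.9 in that order of groups. Both genes had separate groups in both experiments and effects of about equal size, 1.38 and -1.37 for *Ksr1* and 1.18 and -1.09 for *Sox4*. *Areg*, the EGF receptor ligand amphiregulin, had 8.46, 11.9 and 21.4 with shScr, 28.5, 36.4 and 30.8 with shId1, 11.02, 16.1 and 17.96 with -dox and 8.12, 6.28 and 5.83 with +dox (log2 1.26 and -1.08), and at least 1 of its calls was lost in 7 of 24 alternatives. *Arid5a*, an RNA-binding protein that steadies inflammatory transcripts, was at 1.93 and -1.398, the induction effect losing its call with any 1 of 8 libraries omitted. Over all 36 genes the silencing effect ran from 1.01 to 4.42 with a median of 1.85, and the induction effect from -3.44 to -1.01 with a median of -1.28.

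The 8 genes that follow *Id1* share no list among those examined, apart from *Adamts15*, a matrix-cleaving protease of the aggrecanase family. *AU021092* and *Grb14* kept both calls in all 24 alternatives. *AU021092*, for which no role is given here, had 7.62, 5.94 and 4.66 with shScr and 0.260, 0.278 and 0.109 with shId1, and 4.87, 3.19 and 7.59 with -dox and 23.1, 22.3 and 10.9 with +dox. The shId1 libraries were all below every shScr library, and every +dox library was above every -dox library (log2 -3.18, SE 0.31, adjusted p = 2.72e-05, and 1.75, adjusted p = 0.0047). *Grb14*, an adaptor that binds and inhibits the insulin receptor, was at 5.27, 3.59 and 3.31 with shScr, 1.78, 1.39 and 0.871 with shId1, 7.55, 6.92 and 7.79 with -dox and 21.8, 20.0 and 17.4 with +dox. Its groups were separate in both experiments and its effects were nearly mirror images, -1.31 (SE 0.20, adjusted p = 0.000874) and 1.35 (adjusted p = 0.00195).

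*Tmem37*, a calcium channel subunit-like membrane protein, had 7.71, 8.64 and 7.69 with shScr, 2.08, 3.42 and 3.88 with shId1, 9.07, 7.69 and 7.69 with -dox and 28.3, 24.6 and 15.6 with +dox (log2 -1.26 and 1.39), and lost a call only in the count test on recovered reads. *Unc5b*, a netrin receptor, was at 7.68, 6.37 and 4.15 with shScr, 2.34, 1.55 and 2.10 with shId1, 10.3, 8.68 and 7.54 with -dox and 19.9, 18.6 and 18.9 with +dox. Its effects were -1.37 and 1.08, and without -dox replicate 3 the induction effect was 0.98. All 8 genes had separate groups in both experiments, as did 327 of all genes tested (3.03%) in this following sense. *Adamts15* was at most 0.223 with shId1 and at 2.50, 0.898 and 0.233 with shScr, where it spread widely, and rose from 2.88, 3.28 and 3.42 with -dox to 10.5, 10.5 and 10.4 with +dox. Its silencing effect (-1.24, adjusted p = 0.0379) lost its call in 12 of 24 alternatives and was -0.72 without shScr replicate 1.

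*Otulinl*, *Dennd2a* and *Slc4a8*, the last a sodium-bicarbonate transporter, completed the group. *Otulinl* was at 11.1, 7.70 and 5.78 with shScr, 3.75, 3.38 and 3.59 with shId1, 3.39, 3.55 and 2.33 with -dox and 11.3, 9.95 and 8.23 with +dox. *Dennd2a* was at 6.32, 4.06 and 2.33, 2.005, 1.79 and 1.38, 4.31, 3.78 and 2.83 and 15.9, 14.8 and 14.0 in the same order. Their silencing effects of -1.05 and -1.01, like that of *Slc4a8* at -1.01, lie just inside the limit: without shScr replicate 1 they were -0.82, -0.70 and -0.86. The number of genes that follow *Id1* was therefore 4 without shScr replicate 1 and 5 without shId1 replicate 3, and 3 of the 8 kept both calls whichever library was left out. Without the 3 libraries that stood apart 6 genes followed *Id1*, 4 of the 8 among them. Just outside the limits were *Prr5l* (log2 -1.32 and 0.98) and *Zfp467* (-1.77 and 0.98).

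**Figure D3:**
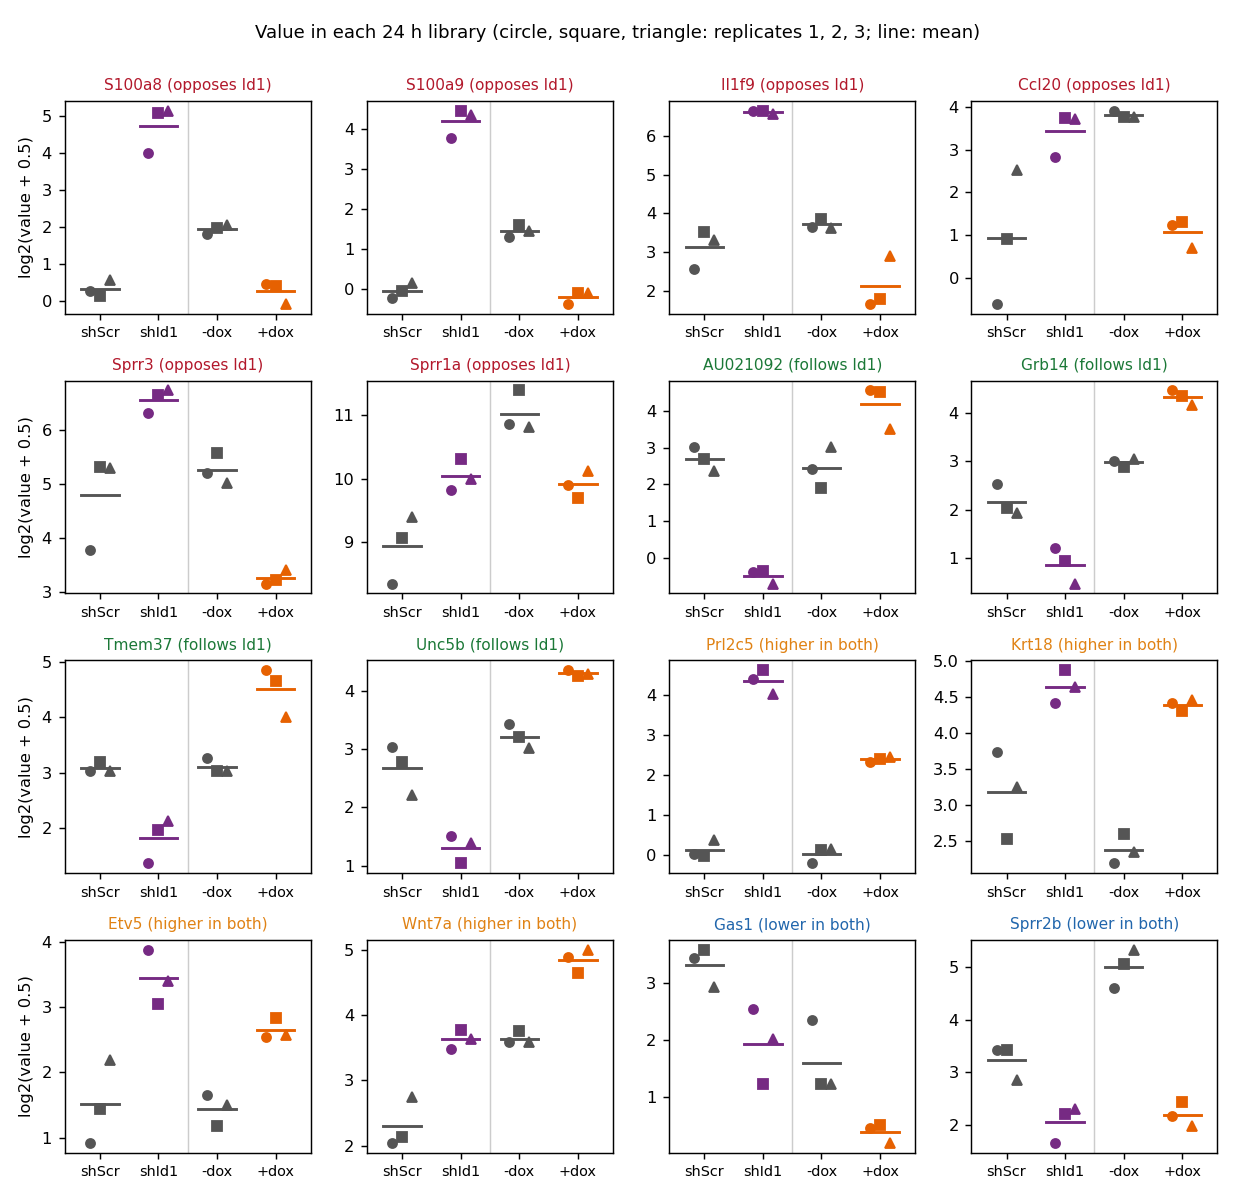
Value of 16 genes in each 24 h library, as log2 of CPM plus 0.5, with 1 panel per gene and its class in the title; circles, squares and triangles are replicates 1, 2 and 3 and the line is their mean. S100a8, S100a9, Il1f9 and Ccl20 go up from shScr to shId1 and down from -dox to +dox, Grb14 and Unc5b do the reverse, and Prl2c5 and Krt18 go up in both.

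The 13 genes that rose in both experiments had separate groups in each. Over all genes tested, every shId1 library lay above every shScr library in 16.3%, and every +dox library above every -dox library in 16.8%. The share of genes apart upward in both was not counted. *Prl2c5*, a placental lactogen family gene of the proliferin group, was at 0.512, 0.470 and 0.792 with shScr, 20.7, 24.1 and 15.8 with shId1, 0.359, 0.585 and 0.595 with -dox and 4.54, 4.78 and 4.95 with +dox. Its effects were 4.24 (SE 0.19, adjusted p = 5.79e-08) and 2.38 (adjusted p = 3.01e-05); the near-identical *Prl2c2* and *Prl2c3* had induction effects of 0.62 and 0.71 that were not called, and reads of the family may be divided between its members. The platelet chemokine *Ppbp* was at 119, 218 and 216 with shScr, 851, 1825 and 1431 with shId1, 21.3, 30.3 and 31.0 with -dox and 94.6, 86.1 and 78.4 with +dox (log2 2.87 and 1.65). *Krt18*, a keratin of simple epithelia and a marker of Merkel cells, was at 12.9, 5.30 and 9.04 with shScr, 20.9, 28.8 and 24.5 with shId1, 4.07, 5.58 and 4.61 with -dox and 20.8, 19.3 and 21.5 with +dox. It gave log2 differences of 1.47 (adjusted p = 0.00114) and 2.01 (adjusted p = 0.000567). The summed value of the 3 Merkel markers in the table, of 5 listed, was 196 to 261 with shScr, 223 to 346 with shId1, 329 to 386 with -dox and 723 to 802 with +dox. *Atoh1* was not in the table. *Krt8*, at 140 to 774 CPM over the 24 h libraries, made up most of this sum. *Krt20* went another way, higher with shId1 and lower with +dox (opposed contrast -1.97, adjusted p = 0.00661). The part of such cells in the *Krt18* result was not tested.

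Among the regulators, *Etv5*, an ETS factor downstream of receptor tyrosine kinases, was at 1.39, 2.22 and 4.06 with shScr, 14.2, 7.75 and 10.1 with shId1, 2.64, 1.75 and 2.33 with -dox and 5.32, 6.66 and 5.47 with +dox. Its effects were 1.93 (adjusted p = 0.000659) and 1.21 (adjusted p = 0.019), the latter between 0.0514 and 0.0851 without -dox replicate 2 or 3 or without +dox replicate 1 or 2. *Wnt7a*, a Wnt ligand, was at 3.61, 3.89 and 6.25 with shScr, 10.7, 13.1 and 11.9 with shId1, 11.5, 12.9 and 11.6 with -dox and 29.1, 24.4 and 31.5 with +dox (log2 1.32 and 1.20). *Jdp2*, an AP-1 family repressor, stood at 7.44, 7.87 and 14.2, 22.8, 24.2 and 23.3, 9.15, 6.74 and 7.19 and 16.0, 19.7 and 20.2 in that order (log2 1.27 and 1.23). The phosphatase gene *Ptpn22* was at 2.28 and 1.53, and the potassium channel gene *Kcnn4* at 2.14 and 1.44 on the log2 scale. The small GTPase genes *Rab17* (3.20 and 1.14) and *Rab32* (1.09 and 1.13), with *Rap1gap2*, *Rnf157* and *Kcnf1*, made up the rest. *Prl2c5*, *Ppbp*, *Ptpn22*, *Krt18* and *Jdp2* kept both calls in all 24 alternatives, and 10 of the 13 kept them without the libraries that stood apart.

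The 5 genes lower in both experiments were *Gas1*, *Sprr2b*, *Them5*, *Hal* and *Gm12868*. *Gas1*, a membrane protein first found in growth-arrested cells and a Hedgehog co-receptor, was at 10.3, 11.4 and 7.04 with shScr, 5.27, 1.83 and 3.56 with shId1, 4.55, 1.84 and 1.84 with -dox and 0.871, 0.917 and 0.639 with +dox. The groups were separate, but the effects of -1.39 (adjusted p = 0.0162) and -1.21 (adjusted p = 0.0403) were not both called with any 1 of 10 libraries omitted. *Sprr2b* was at 10.3, 10.3 and 6.71 with shScr, 2.64, 4.09 and 4.43 with shId1, 24.0, 32.8 and 39.9 with -dox and 3.99, 4.88 and 3.43 with +dox (log2 -1.19 and -2.81), the silencing effect being -0.99 without shId1 replicate 1. *Hal*, the histidine-degrading enzyme whose product urocanic acid absorbs ultraviolet light in the stratum corneum, was at 3.34, 3.46 and 3.08, 1.11, 1.55 and 1.20, 2.32, 1.98 and 2.48 and 0.642, 0.821 and 0.719 in the same order of groups (log2 -1.09 and -1.17). *Hal* is the 1 of the 5 that kept both calls whichever library was left out. *Them5*, a mitochondrial thioesterase gene, was at 45.3, 40.7 and 28.2, 16.3, 14.0 and 19.0, 26.1, 26.3 and 27.0 and 12.1, 12.5 and 4.35. Its silencing call was lost without shScr replicate 1 or 2 or shId1 replicate 2 (adjusted p from 0.0682 to 0.0729). Counted again, 2 genes were lower in both without shScr replicate 2 and 3 without shId1 replicate 2.

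With a looser limit on each effect, a log2 difference over 0.5, and a call in the combined contrast, 105 genes followed *Id1* (0.973%), 179 opposed it (1.66%), 117 were higher in both (1.08%) and 54 lower in both (0.5%). These are 35% of the 300 opposed contrasts above 0, 45% of the 398 below 0, 32.9% of the 356 same-way contrasts above 0 (3.3% of genes) and 29.5% of the 183 below 0 (1.7%). Among the wider set that follows *Id1* were the chaperone *Cryab*, with 42.9, 37.3 and 41.0 with shScr, 9.69, 8.71 and 7.66 with shId1, 185, 211 and 188 with -dox and 338, 299.7 and 265 with +dox (opposed contrast 2.78, adjusted p = 1.86e-06), and the lysyl oxidase *Loxl4* (2.34, adjusted p = 1.3e-05). *Mycn*, a bHLH growth regulator, was at 4.91, 4.96 and 4.20 with shScr, 3.601, 2.78 and 2.25 with shId1, 2.60, 3.24 and 4.12 with -dox and 13.3, 12.9 and 12.1 with +dox, so that its opposed contrast of 2.46 came mainly from induction (1.82 against -0.64). *Grip2*, by contrast, had an opposed contrast of 3.64 that came from silencing (-3.27, with 0.37 for induction). The colony-stimulating factor gene *Csf3* and the chemokine gene *Cxcl2* had large opposed contrasts below 0 (-5.25, SE 1.38, adjusted p = 0.0241, and -5.19, SE 0.96, adjusted p = 0.00331) without a silencing call, their shScr values running from 0.0904 to 15.4 and from 0.361 to 10.8. The *Csf3* call was lost with any 1 of 7 libraries omitted (adjusted p up to 0.0708).

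By gene list, the opposed contrast fell on inflammation and cornification. Over all genes tested it called 3.69% below 0 and 2.78% above 0, the shares against which each list count is read. Of 21 alarmin and inflammation genes tested, 17 were called below 0 and 0 above 0 (0 above 0 also at an unadjusted p below 0.05, and in edgeR, whose fit had 1 shId1 library), with a median silencing effect of 1.6, a median induction effect of -0.90 and a median opposed contrast of -2.14, where the medians over all genes were 0.01, -0.01 and -0.01. Besides the genes above these include *S100a7a* (-4.01), the beta-defensin *Defb14* (-2.11), *Il1a* (-3.34) and the interleukin-1 receptor antagonist *Il1rn* (-1.42). The iron-binding protein *Lcn2* and the cytokine *Csf1* were called below 0 in the same-way contrast instead (-1.51 and -1.004). That contrast called 7 of the 21 above 0, against 3.3% of all genes. Silencing alone called 11 of the 21 higher and 1 lower, and induction alone 4 lower and 0 higher. In the chemokine list, 5 of the 6 genes tested were called below 0, all except *Cxcl16*, with a median opposed contrast of -4.20. *Cxcl5* (-3.56) and *Cxcl1* (-4.09) joined those named above. The chemokine *Ppbp*, which is not in that list, was higher in both experiments (log2 2.87 and 1.65). Of 45 cornified envelope genes, 27 were called below 0 and 1 above 0, with medians of 0.89 for silencing, -0.85 for induction and -1.78 for the opposed contrast. In the same-way contrast 8 of the 45 were called above 0 and 3 below 0. The exception above 0 in the opposed contrast was *Casp14*, the caspase that acts in filaggrin breakdown, at 11.5, 6.07 and 6.53 with shScr, 2.30, 1.31 and 1.27 with shId1, 26.5, 27.8 and 27.1 with -dox and 46.4, 39.0 and 33.2 with +dox (opposed contrast 2.50, adjusted p = 0.000329).

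**Figure D4:**
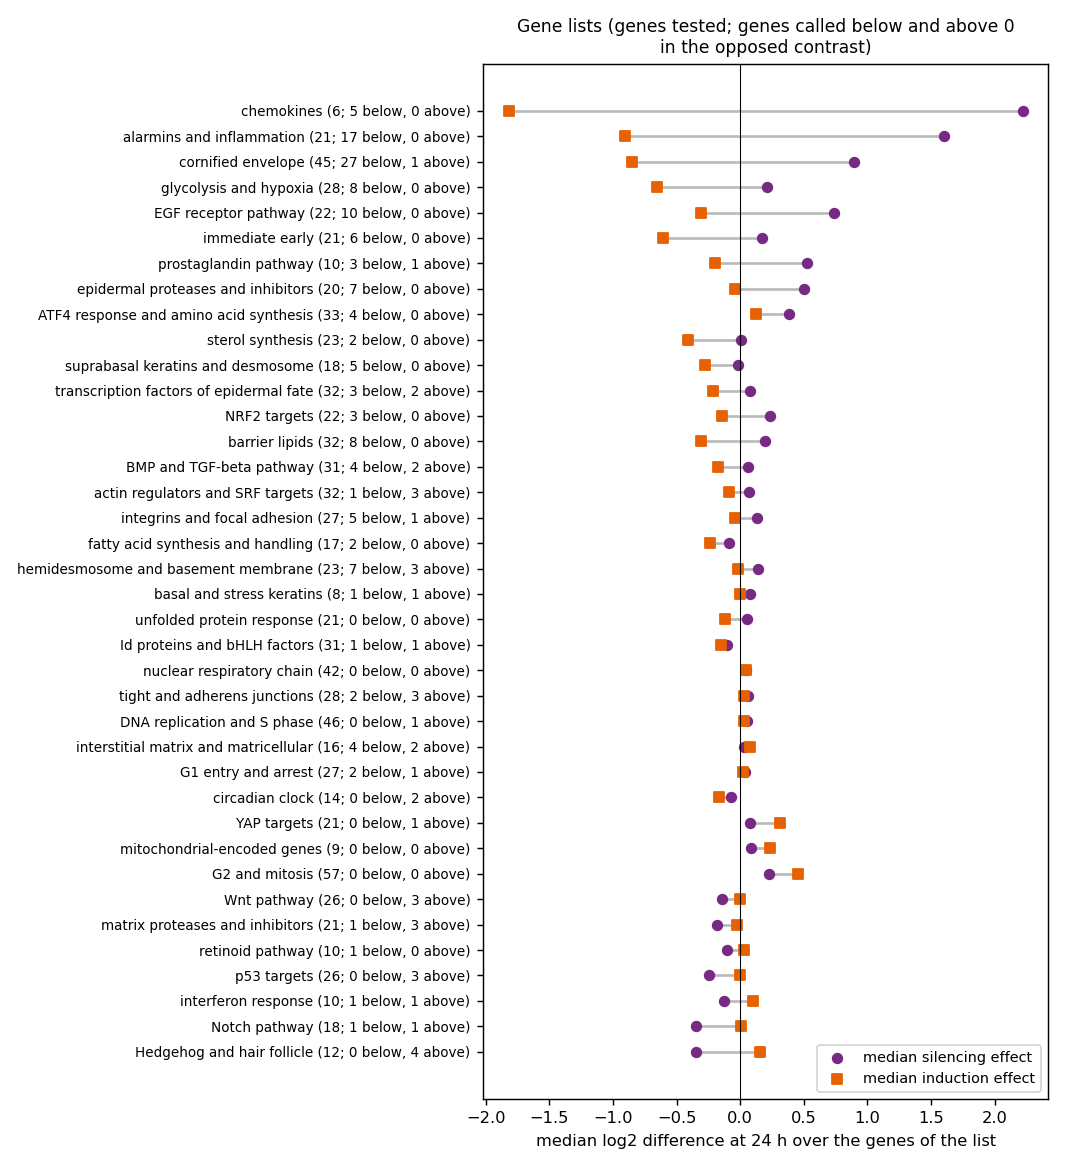
Median log2 difference at 24 h for silencing (purple circles) and induction (orange squares) over the genes of each list with at least 6 genes tested; labels give genes tested and genes called below and above 0 in the opposed contrast. Chemokines, alarmins and cornified envelope genes show the widest gap, silencing to the right of 0 and induction to the left.

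The EGF receptor pathway list had 10 of 22 genes below 0 and 0 above (3 above at an unadjusted p below 0.05), with a median opposed contrast of -0.92. Over all genes 3.69% were below 0 and 2.78% above, here and for the other lists of this paragraph. The ligands *Hbegf* (-2.69), *Ereg* (-1.84), *Epgn* (-1.90) and *Areg* (-2.35) were among them, with the feedback phosphatase *Dusp6* (-2.49). *Hbegf* was at 19.2, 31.7 and 59.2 with shScr, 45.6, 88.9 and 71.1 with shId1, 78.5, 94.3 and 109 with -dox and 28.5, 28.5 and 27.5 with +dox, so its shRNA groups overlapped and its ID1 groups did not. The ligand *Nrg1* and the ETS genes *Etv5* and *Etv4* were called above 0 in the same-way contrast (1.33, 3.14 and 2.01). Epidermal proteases had 7 of 20 below 0, led by the kallikreins *Klk7* (-2.78) and *Klk8* (-2.21) that shed corneocytes, and barrier lipid genes 8 of 32, such as *Alox12b* (-2.10), the lipoxygenase of the lipid envelope, and *Fa2h* (-2.48). The desaturase *Degs1*, which makes ceramide, was called below 0 in the same-way contrast (-1.995, adjusted p = 3.41e-05).

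Smaller and less steady counts came from other lists, to be read against the 3.69% of all genes called below 0. Glycolysis and hypoxia genes had 8 of 28 below 0, including the carbonic anhydrase *Car12* (-4.12), *Pgk1* (-1.64) and *Vegfa* (-1.21), and the count was 13 without shScr replicate 2, 14 without shScr replicate 3 and 14 without shId1 replicate 1. Immediate early genes had 6 of 21 below 0, such as *Fosl1* (-3.08) and *Egr1* (-2.47), and 3 without -dox replicate 3. Suprabasal keratins and desmosome genes had 5 of 18 below 0, among them *Krt10*, the keratin of the first suprabasal layer, at 70.7, 109 and 91.8 with shScr, 167, 104 and 134 with shId1, 159, 284 and 195 with -dox and 43.7, 49.4 and 115 with +dox. Its opposed contrast of -2.28 (adjusted p = 0.00511) came from induction (-1.71, adjusted p = 0.00589), with 0.57 for silencing (adjusted p = 0.283). The suprabasal count was 3 without shScr replicate 3, shId1 replicate 3, -dox replicate 3 or +dox replicate 1.

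The basement membrane divided by protein. The collagen IV genes *Col4a1* and *Col4a2*, which form the network of the basement membrane, and the Fraser complex gene *Fras1* were called above 0 (opposed contrast 2.04, 1.68 and 1.41). *Col4a1* was at 51.5, 30.1 and 45.6 with shScr, 22.6, 13.5 and 18.4 with shId1, 94.1, 93.3 and 86.0 with -dox and 168, 149.5 and 174 with +dox, with separate groups in both experiments. Integrin and laminin genes went the other way: *Itga6* (-1.28), *Itgb1* (-1.45), *Itga3* (-1.36), *Lama3* (-1.16), *Lamb3* (-1.39) and the hemidesmosomal collagen *Col17a1* (-1.04) were among those called below 0. In all, 7 of 23 genes of the list were below and 3 above, against 3.69% and 2.78% of all genes. The 7 became 4 without shScr replicate 1, shId1 replicate 3 or +dox replicate 2. The hemidesmosomal integrin *Itgb4* was at -0.16 (adjusted p = 0.63). Among matrix proteases *Mmp2* (1.93) and the plasminogen activator *Plat* (2.05) were above 0 with *Adamts15*, and the matrix protein *Postn* had 2.40. *Mmp2* and *Postn* also belong to the fibroblast and feeder marker list, whose summed value, given above, was higher in every +dox than in every -dox library. Over the 24 h libraries *Sparc* (176 to 353 CPM) and *Col6a1* (37.0 to 291) weighed more in that sum than *Postn* (at most 47.8) and *Mmp2* (at most 5.89). *Col5a2*, of the same list, was called below 0 (-1.18, adjusted p = 0.0352), a call lost without any 1 of the -dox libraries, among other omissions. The part of feeder cells in these results was not tested.

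Cell cycle and respiratory chain lists are read against the 2.78% of all genes called above 0 and 3.69% called below 0. Of 57 G2 and mitosis genes 0 were called in the opposed contrast by limma or by edgeR, with 14 at an unadjusted p below 0.05, and 3 were above 0 in the same-way contrast, with medians of 0.23 for silencing and 0.46 for induction. Of 46 DNA replication genes 1 was above 0, and 0 of 42 nuclear respiratory chain genes and 0 of 9 mitochondrial genes were called by either tool, with 3 and 2 at an unadjusted p below 0.05. Of 33 genes of the ATF4 response and amino acid synthesis, 4 were called below 0 and 0 above 0 in the opposed contrast (15 below and 1 above at an unadjusted p below 0.05) and 8 were above 0 in the same-way contrast, which called 3.3% of all genes above 0, among them the proline synthesis genes *Pycr1* (2.15, adjusted p = 3.15e-05) and *Aldh18a1* (1.61). The p53 targets *Ccng1* (1.71), *Sesn1* (1.29) and *Eda2r* (1.52) were above 0, 3 of 26. The *Eda2r* call (adjusted p = 0.038) was lost in 9 of 24 alternatives, each the omission of 1 library. The Wnt ligands *Wnt5a* (1.98) and *Wnt6* (1.27) with the receptor *Lgr4* (1.05) gave 3 of 26 for the Wnt list. Hair follicle genes had 4 of 12 above 0: *Foxn1* (1.03), *Eda* (1.26), *Dlx3* (1.36) and *Tbx1* (1.53). The *Foxn1* call was lost without shScr replicate 1, -dox replicate 1 or +dox replicate 1 or 2.

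Factors tied to the study question were mostly uncalled in the opposed contrast. *Cebpa*, a bZIP factor of epidermal differentiation, was at 22.8, 24.0 and 21.6 with shScr, 11.3, 13.9 and 11.8 with shId1, 19.9, 21.3 and 16.2 with -dox and 19.9, 19.3 and 15.3 with +dox. Its shRNA groups were separate and its ID1 groups overlapped, and the opposed contrast of 0.79 (SE 0.20, adjusted p = 0.0171) did not pass the limit on size. The E protein gene *Tcf3* was at 0.89 (adjusted p = 0.02), *Tcf4* at -0.51 (adjusted p = 0.294) and *Tcf12* at -0.10 (adjusted p = 0.817). The related inhibitor *Id2* was called above 0 in the same-way contrast (1.52, adjusted p = 0.000421), as was the cyclin *Ccnd1* (1.56, adjusted p = 1.54e-05). *Trp63*, the master factor of basal keratinocytes, had an opposed contrast of -0.75 (adjusted p = 0.00809), below the limit on size. *Krt5*, *Krt14*, *Krtdap*, *Tgm1*, *Klf4*, *Hes1*, *Grhl2*, *Cebpb* and *Id3* had opposed contrasts between -0.72 and 0.63, none past the adjusted p limit. *Krt15*, a basal keratin, was at -1.12 (adjusted p = 0.125), and was called with the replicate block (adjusted p = 0.00611).

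Few of the opposing genes were called in low calcium. At 0 h, where induction called 4.15% of genes higher and 1.01% lower and silencing 1.58% higher and 0.592% lower, 6 of the 36 were higher with shId1, 2 were lower and 2 higher with +dox, and 1, *Fabp4*, was opposed in both. For 25 of the 36 the opposed contrast at 24 h was lower than at 0 h by a test of the difference, called below 0 in 5.99% of all genes and above 0 in 2.84%; the opposed contrast at 0 h was called above 0 in 5.24% of genes and below 0 in 2.83%, and in 2 and 8 of the 36. The test of the difference uses the same 24 h values that chose the 36 genes, so its count over them is a description only. For genes almost without reads at 0 h, it cannot tell an effect that appears with calcium from one that could not be seen before. *S100a8* was already higher with shId1 at 0 h (log2 1.90, adjusted p = 0.000473), and the difference between times was -3.47 (adjusted p = 0.0012). *Il1f9* had a silencing effect of 3.36 at 0 h (adjusted p = 0.000155), close to that at 24 h, and an induction effect of -0.75 (adjusted p = 0.283). *Ptgs2* was higher with +dox at 0 h (log2 1.26, adjusted p = 0.000968), opposite to its direction at 24 h.

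The genes that follow *Id1* varied at 0 h. Of the 8, 7 were higher with +dox at 0 h, 3 were lower with shId1 and 3, *Grb14*, *Dennd2a* and *Adamts15*, were opposed in both, as were 59 of all genes (0.545%). *Grb14* at 0 h was at 7.28, 11.3 and 7.17 with shScr, 2.91, 3.26 and 3.00 with shId1, 1.21, 1.87 and 1.20 with -dox and 12.5, 11.7 and 12.4 with +dox (log2 -1.32 and 2.73). Its opposed contrast was lower at 24 h than at 0 h by -1.397 (adjusted p = 0.0184), and the -dox libraries were higher at 24 h than at 0 h. Of the 13 genes higher in both at 24 h, 10 were higher with +dox at 0 h and 2 higher and 1 lower with shId1. *Gas1* reversed in the shRNA experiment: at 0 h it was higher with shId1 (log2 1.46, adjusted p = 0.00742) and lower with +dox (-2.89, adjusted p = 1.93e-06), so it opposed *Id1* before calcium and was lower in both after.

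**Figure D5:**
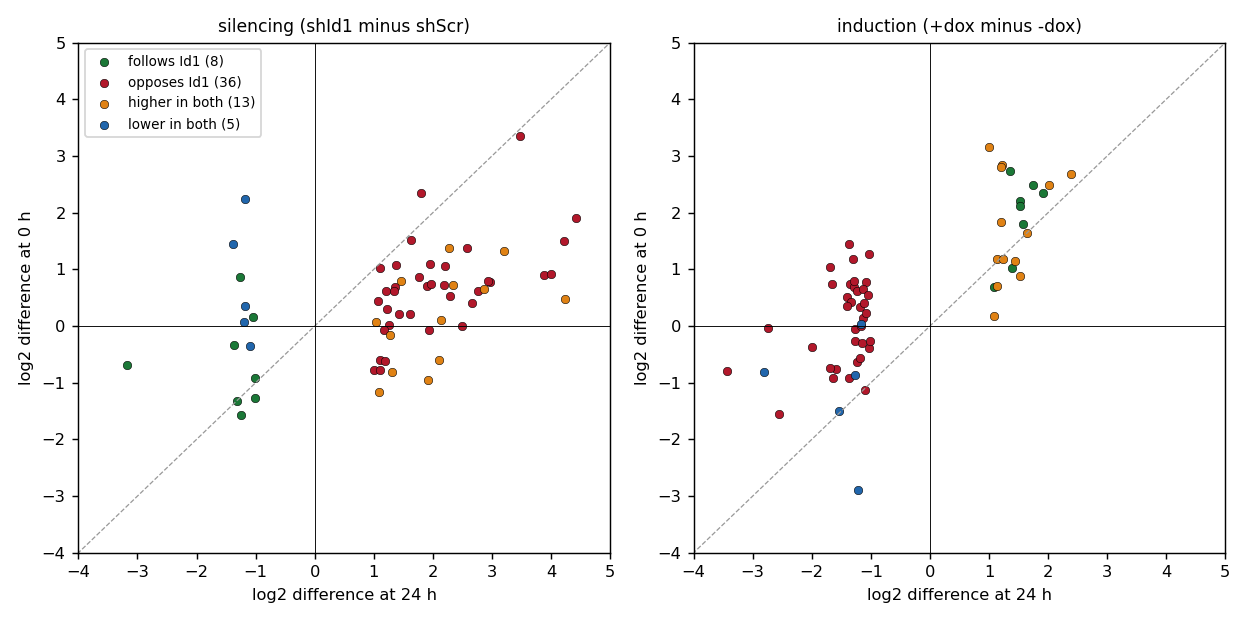
Log2 difference at 0 h (vertical axis) against 24 h (horizontal axis) for the 62 genes called in both experiments, with silencing in the left panel and induction in the right; the dashed line marks equal effects. Opposing genes (red) lie between -1.56 and 1.44 on the vertical axis of the right panel, with a median of 0.19 against -1.28 at 24 h, and the 8 genes that follow Id1 (green) lie between 0.69 and 2.73 there.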

How the data were processed

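The 24 RNA-seq libraries (TruSeq stranded mRNA, NovaSeq) were deposited as 1 table of 10818 genes. Its columns headed H2BGFP were taken as shScr, because no other columns were left for that group. The match is thus inferred. The authors demultiplexed with bcl2fastq 2.19.1.403, used GRCm38 and scaled with edgeR TMM, per the labels and the study's methods; the aligner and counter are not given in the sources used here. The deposited values are a normalised signal, reads per 1000000 of the TMM-scaled library (CPM), not divided by gene length although the file's title names FPKM. In 18 of 24 libraries, 9 of the 12 at 24 h, the values were whole multiples of 1 read (100% of values within 0.05 of a whole read), which gave the depth there. The authors' own comparisons were not in the table.

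Values were tested as log2(value + 0.5), so differences of low genes are understated, with limma 3.58.1 (trend and robust moderation) in R 4.3.3, on the 12 libraries at 24 h (8 residual degrees of freedom) and the 10793 genes that reached 1 CPM in 3 or more libraries; the comparison with 0 h used all 24 libraries and 10818 genes. A call needs an adjusted p below 0.05 and a log2 difference over 1, a 2-fold change. Members, gene lists and tests were chosen with earlier results of these data known. Genes named in the text are those the study discusses, up to 12 per class with the largest smaller effect (highest group mean at least 2, no predicted gene), the 10 largest opposed contrasts each way, up to 4 per list and the 5 largest differences from 0 h each way; others are named as members of a class or list. Same-numbered shRNA replicates deviated together at 24 h (r = 0.71, 0.33 and 0.30) and ID1 replicates did not (r = -0.08, -0.02 and 0.23), so the fit with a replicate block is given where it changes a call. Alternatives were other pseudocounts, filters, scalings, weights, all 24 libraries, each library left out and, chosen after seeing the data, edgeR 4.0.16 on the recovered reads of 9 libraries (1 shId1, 2 shScr, 3 -dox and 3 +dox) and a fit without the 3 libraries that stood apart. The fitting code was tested on simulated data. Promoters and gene positions were read with Python 3.11.15 and pandas 2.3.3, and figures drawn with matplotlib 3.10.9.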

Additional observations from a re-analysis of the deposited data

Results flagged for a closer look

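Over all genes, the opposed contrast was called different between 24 h and 0 h for 307 genes above 0 and 648 below 0. Among the named genes of the classes, those named for the largest differences from 0 h and *Id1*, there were 28 for which it differed by a test of the difference itself (limma, all 24 libraries, adjusted p below 0.05 and a log2 difference over 1); 20 were lower at 24 h and 8 higher, and the values below are 24 h minus 0 h on the log2 scale. The classes were chosen on the 24 h values that enter this difference. Of the 25 opposing genes with such a difference, the 9 named by that rule were *S100a8* (-3.47), *S100a9* (-3.44), *Ccl20* (-5.20), *Cxcl3* (-3.97), *Lce3f* (-5.14), *Lce1a1* (-3.47), *Pglyrp4* (-3.52), *Pla2g4d* (-3.92) and *Arid5a* (-3.92). The opposed contrast of *Ccl20* was -0.03 at 0 h and -5.23 at 24 h, and it was at most 0.03 CPM in the 0 h libraries. *Csf3* (-6.47), *Cxcl2* (-5.26) and *Fosl1* (-5.94) were the cytokine, chemokine and AP-1 subunit genes with the largest differences below 0. *Fosl1*, for one, changed sign, from 2.86 at 0 h to -3.08 at 24 h.

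*Id1* itself was at -3.28 (adjusted p = 0.00452), its opposed contrast being 4.41 at 0 h and 1.13 at 24 h. Of the genes that follow it, *Grb14* had -1.4, *Tmem37* 2.51 and *Unc5b* 1.43, so the opposed contrasts of the last pair were larger at 24 h than at 0 h. Genes higher in both experiments at 24 h gave *Etv5* -3.49, *Jdp2* -3.04, *Prl2c5* -4.06, *Rab17* -1.92, *Rab32* -1.84 and *Wnt7a* -3.73, and genes lower in both gave *Gas1* 4.52 and *Them5* 3.38. *Wnt7a* had an opposed contrast of 3.62 at 0 h and -0.12 at 24 h, and *Gas1* one of -4.35 at 0 h and 0.17 at 24 h. The remaining named genes above 0 were *Drc1* (5.18), *Slc6a2* (4.30), *Dapl1* (4.05) and *Bmf* (3.75), each below 0 at 0 h and above 0 at 24 h. No test for outlying single values was run within the groups of 3 libraries.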

How the results depend on the processing

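No called value and no count changed its direction under any alternative, while the uncalled opposed contrasts of *Krtdap* (-0.22 to 0.19) and *Tcf12* (-0.23 to 0.03) crossed 0 and that of *Krt14* reached it. Without the limit on fold change, 1518 genes were called in the opposed contrast in place of 698, 1556 in place of 411 for silencing, 1142 in place of 210 for induction, 185 in place of 44 opposed in both, 147 in place of 18 moving the same way in both and 1536 in place of 955 for the difference between 24 h and 0 h, since that limit removes small effects. With array weights 71 genes were opposed in both and 1560 differed between times, and with a pseudocount of 1 there were 11 genes moving the same way in both. Leaving out 1 library at a time gave 580 to 816 genes in the opposed contrast, 25 to 67 opposed in both, 13 to 19 moving the same way in both, 344 to 519 for silencing, 155 to 256 for induction and 773 to 1116 for the difference between times; the cause was not tested. Of 269 values of named genes, 78 lost a call in at least 1 alternative, 34 of them in edgeR on the recovered reads of 9 libraries. That fit holds 1 shId1 and 2 shScr libraries and takes the lone shId1 library to vary like the other groups, so calls kept or lost in it are no replicate check of silencing. The replicate block, which the shRNA replicates warrant, gave 769 genes in the opposed contrast and 48 in place of 36 opposing genes; among named values it changed the calls of the opposed contrasts of *Id1* (adjusted p = 0.00378) and *Krt15* (0.00611), gained, and of the same-way contrast of *Ccn2* (0.0844), lost. With 3 libraries a group and values near 1 CPM, differences of low genes such as *Slc4a8* are limited by depth.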

Other observations

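Clock and Notch genes were not described above. Over all genes the opposed contrast called 2.78% above 0 and 3.69% below 0, and the same-way contrast 1.7% below 0. Among 14 circadian genes tested, 2 were called above 0 and 0 below 0 in the opposed contrast (4 below at an unadjusted p below 0.05, 0 in edgeR), and 3 below 0 in the same-way contrast. *Nr1d1*, the REV-ERB alpha repressor, was at 3.82, 3.93 and 3.54 with shScr, 8.58, 6.40 and 7.44 with shId1, 3.67, 3.96 and 3.62 with -dox and 9.77, 7.68 and 7.03 with +dox (opposed contrast 0.12, adjusted p = 0.779, same-way contrast 1.91, adjusted p = 0.000157), and every shId1 and +dox library was above its controls. The period gene *Per2* had opposed and same-way contrasts of 1.08 and -1.61. The Notch ligand *Jag1* was called below 0 (-1.80, adjusted p = 5.86e-05), at 73.4, 71.2 and 95.3 with shScr, 149, 135 and 145 with shId1, 131, 137 and 145 with -dox and 62.2, 72.3 and 78.1 with +dox.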
